A study of Mus musculus with 12 samples.

Results

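ChIP-seq of the estrogen receptor ERα and the progesterone receptor PR in mouse mammary glands gave a set of regions that carried a deposited peak of both receptors in every library of Y541S glands and no deposited peak in any library of WT glands. Overlapping peaks (1 bp or more) of the 8 lists were merged into regions, and autosomal regions with a peak in all 4 Y541S lists (2 of ERα, 2 of PR) and in none of the 4 WT lists were kept. There were 731 such jointly gained regions among 314966 autosomal regions (0.232%). The regions were chosen by the presence and absence of deposited peaks, so the ranks and heights of their peaks are given as a description, without a test.

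WT glands came from mice with wild-type Esr1 and Y541S glands from mice whose Esr1 carries the Y541S mutation. All mice were raised to 8 weeks of age, implanted with E2 (estradiol) and P4 (progesterone), and killed 4 days later, so that no group was without added hormone. Each receptor and genotype had 2 biological replicates, and the labels do not say how many animals a replicate held or whether chromatin of one replicate went into both immunoprecipitations. Samples of a further mutation, D542G, were not analysed here. The labels give whole mammary glands, while the series title names luminal cells, and a peak does not show the cell it came from.

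ERα, encoded by Esr1, and PR, encoded by Pgr, are hormone-activated transcription factors that bind DNA as dimers. ERα recognises inverted repeats related to AGGTCA, and PR shares its elements, built on ACANNNTGT, with the glucocorticoid receptor. In the mammary gland both receptors are found in hormone-sensing luminal cells, where estrogen induces Pgr, and these cells instruct their neighbours through secreted signals such as amphiregulin and RANKL. The Y541S mutation replaces a tyrosine of the ligand-binding domain, and substitutions of the matching human residue are known from endocrine-resistant breast cancer.

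The lists held 64488 to 113695 peaks per library, and the Y541S lists (101382 to 113695) were all longer than the WT lists (64488 to 93491). The background coverage (the 0.001 quantile of the local expectation at summits, derived from fold and p) was lowest, at 0.927, in the second WT PR replicate and highest, at 2.68, in the first, and lay from 1.35 to 2.45 in the Y541S libraries. At these backgrounds a p of 0.01 needs 4 to 7 overlapping fragments in a WT library, that is a fold of 2.18 to 2.61. A region missing from a WT list can still hold signal under the threshold.

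DNA sequence was at hand only for RefSeq promoter windows and miRNAs (GRCm38.p6), so sequences are shown where a jointly gained region lay on a promoter or beside a miRNA gene. The windows of 43 coding promoters (42 genes) overlapped one of the regions. Below are 250 bases upstream of the start, 5′ to 3′ on the gene's strand, for the promoter with the best-ranked region (Mtmr2), for a prostaglandin synthase gene (Ptgs2), and for 3 promoters with a receptor or AP-1 motif. Capitals mark AGGTCA (Plekhh1 and Ugt1a7c), ACANNNTGT (Ugt1a7c) and TGANTCA (Gja1), searched on both strands. Matches to GATA and STAT letters were counted but are not capitalised. All 5 stretches were covered in full by a jointly gained region.
Mtmr2 (chr9:13765704-13765953, plus strand): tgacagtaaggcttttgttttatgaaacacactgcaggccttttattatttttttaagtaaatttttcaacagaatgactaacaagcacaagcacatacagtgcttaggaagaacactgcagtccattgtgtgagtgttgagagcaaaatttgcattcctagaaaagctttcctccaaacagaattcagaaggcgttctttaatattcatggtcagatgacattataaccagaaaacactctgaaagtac
Ptgs2 (chr1:150099781-150100030, plus strand): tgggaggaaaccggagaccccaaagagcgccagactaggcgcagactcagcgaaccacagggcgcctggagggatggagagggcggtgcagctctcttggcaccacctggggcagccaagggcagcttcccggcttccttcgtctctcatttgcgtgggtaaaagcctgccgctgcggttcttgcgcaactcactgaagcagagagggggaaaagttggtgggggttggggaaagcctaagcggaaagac
Plekhh1 (chr12:79028913-79029162, plus strand): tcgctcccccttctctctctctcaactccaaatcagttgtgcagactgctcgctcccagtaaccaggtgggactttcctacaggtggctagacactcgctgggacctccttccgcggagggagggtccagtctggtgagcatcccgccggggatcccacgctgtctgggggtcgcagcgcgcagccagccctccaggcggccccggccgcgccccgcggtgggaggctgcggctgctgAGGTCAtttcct
Ugt1a7c (chr1:88094751-88095000, plus strand): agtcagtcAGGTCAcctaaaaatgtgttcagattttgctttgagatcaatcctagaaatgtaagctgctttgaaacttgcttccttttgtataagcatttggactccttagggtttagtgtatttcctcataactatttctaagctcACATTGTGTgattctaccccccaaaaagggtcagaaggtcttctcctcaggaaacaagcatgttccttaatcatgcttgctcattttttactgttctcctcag
Gja1 (chr10:56377050-56377299, plus strand): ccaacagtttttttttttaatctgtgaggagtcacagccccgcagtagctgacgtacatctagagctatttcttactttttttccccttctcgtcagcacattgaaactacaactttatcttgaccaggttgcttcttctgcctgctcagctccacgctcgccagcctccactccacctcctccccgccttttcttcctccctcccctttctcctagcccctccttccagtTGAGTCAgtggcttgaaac

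Receptor motifs were no more frequent in the promoters on jointly gained regions than in promoters at large, as shares of windows running from 250 bases before to 50 after the start. AGGTCA, 1 arm of the estrogen response element, was in 6 of the 43 windows (13.95%), against 14.7% of all 20085 autosomal coding windows and 10.8% of the 6090 windows on regions with a peak in all 8 libraries. ACANNNTGT, the core of progesterone and glucocorticoid response elements, was in 2 of 43 (4.65%) against 6.01% of all windows. TGANTCA, the AP-1 site, was in 3 of 43 (6.98%) against 7.06%. The full palindromic estrogen response element, which can overlap AGGTCA, was in 0 of 43 and in 11 of all windows, and a longer progesterone response element around ACANNNTGT in 0 of 43 and in 92 of all windows. The forkhead motif TGTTTAC was in 1 of 43 (2.33%) against 3.04%. AGATAA, bound by GATA factors, was in 5 of 43 (11.6%, against 9.57% of all windows), and the STAT motif TTCNNNGAA in 2 of 43 (4.65%, against 7.78%). On regions of all 8 libraries the shares were 3.09% for ACANNNTGT, 4.22% for TGANTCA, 2.36% for TGTTTAC, 4.84% for AGATAA and 7.39% for TTCNNNGAA. With 43 windows, none of these differences was tested. These counts concern promoters only, and the distal regions could not be searched.

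Hairpins of 11 miRNA genes lay within 10 kb of 9 of the regions, which is 1.2% of 919 autosomal hairpin genes in the RefSeq table. The sequences printed are the 5p arm beside the best-ranked region (miR-138) and 1 pair of arms with a shared seed from each of 2 clusters, with the seed (bases 2 to 8) in capitals.
mmu-miR-138-5p: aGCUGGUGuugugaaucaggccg
mmu-miR-212-3p: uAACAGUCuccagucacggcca
mmu-miR-132-3p: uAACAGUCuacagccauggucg
mmu-let-7b-5p: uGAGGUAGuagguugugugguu
mmu-let-7c-5p: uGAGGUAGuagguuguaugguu
Mir138-2 lay 1.56 kb from the best-ranked region. Mir212 and Mir132, whose 3p arms share the seed AACAGUC, lay 2.37 and 2.66 kb from a region on the promoter of Hic1, a transcriptional repressor gene. Mirlet7b and Mirlet7c-2, with the seed GAGGUAG, lay 8.52 and 9.22 kb from a region 18.7 kb outside Ppara, the gene of a fatty-acid-sensing nuclear receptor.

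Complete gain was a small tail of a graded distribution. Of the 26683 autosomal regions with a peak in all 4 Y541S libraries, 11983 also had one in all 4 WT libraries, 7521 in 3, 4397 in 2, 2051 in 1 and 731 in none (2.74%). The mirror class, with a peak in all 4 WT and no Y541S library, held 6 regions (0.0019% of all regions), out of 14047 regions present in all 4 WT libraries. The mirror count was 3 to 15 in the other settings that used all 8 libraries and both replicates. With each list reduced to its 50000 strongest peaks, 76 regions were jointly gained and 15 were in the mirror class, and with 20000 peaks 22 and 11.

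**Figure D1:**
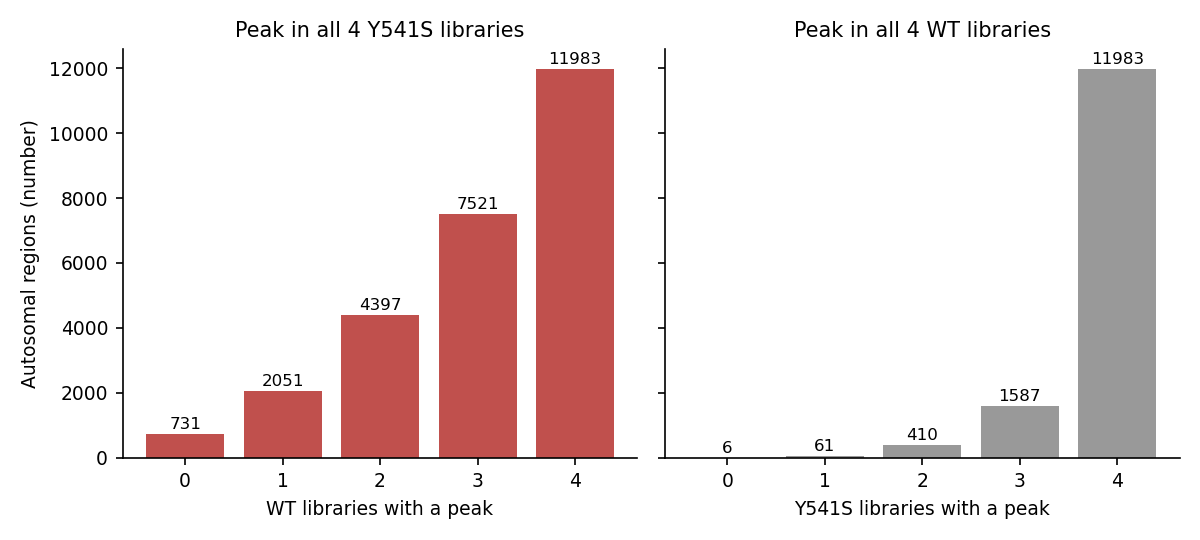
Number of autosomal regions with a peak in all 4 Y541S libraries (left) by the number of WT libraries with a peak, and with a peak in all 4 WT libraries (right) by the number of Y541S libraries with a peak. The class without any WT peak (731) is the smallest on the left, and its counterpart on the right holds 6 regions.

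The edge of the rule was crowded. A further 3437 regions had no WT peak but lacked 1 Y541S peak, which was that of ERα replicate 2 in 1163 regions, ERα replicate 1 in 959, PR replicate 1 in 720 and PR replicate 2 in 595. Of the 2051 regions with all Y541S peaks and a single WT peak, that peak was in PR replicate 2 for 844, ERα replicate 1 for 608, PR replicate 1 for 309 and ERα replicate 2 for 290. The single WT peak had a median −log10 p of 5.17 and a median fold of 3.63, as deposited. Just inside the rule, the weakest peaks of the 731 regions had a −log10 p of 2.04 and 2.05 in the ERα libraries and 2.59 and 2.55 in the PR libraries.

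Peaks of the jointly gained regions were lower than those of regions found in all 8 libraries, and for ERα about as high as those of all autosomal regions. At the summit, the median coverage was 11 fragments in Y541S ERα replicate 1, 10 in ERα replicate 2, 15 in PR replicate 1 and 11 in PR replicate 2, over median local expectations of 2.45, 1.92, 2.58 and 1.64. The median fold enrichment deposited by the authors (coverage plus 1, divided by local expectation plus 1) was 3.34 and 3.31 for ERα and 3.88 and 4.10 for PR. In the regions found in all 8 libraries the medians were 5.11, 5.01, 6.76 and 6.67 in the same 4 libraries. Over all autosomal regions with a peak in the library they were 3.35, 3.31, 4.65 and 4.32. Regions of ERα alone in Y541S had 3.08 and 3.31, and regions of PR alone 4.35 and 4.01. A −log10 p of at least 5 in all 4 libraries was reached by 74 regions (10.1%) and one of at least 10 by 2.

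Ranked within each list, where 0% is the strongest peak, the median jointly gained region stood at 53.6% and 43.8% of the ERα lists and 67.6% and 59.2% of the PR lists. Regions of all 8 libraries stood at 9.84%, 9.18%, 26.0% and 17.6%. In 35 of the 731 regions all 4 peaks lay in the first 50% of their lists, and in 91 none did. Both ERα ranks were better than both PR ranks in 273 regions, and the reverse held in 85. By fold, the order was the other way, with a higher mean log2 fold for PR in 556 regions and for ERα in 175. The median fold of all peaks in a list was 3.35 and 3.31 for ERα and 4.64 and 4.26 for PR. The folds of different libraries were not scaled to each other.

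**Figure D2:**
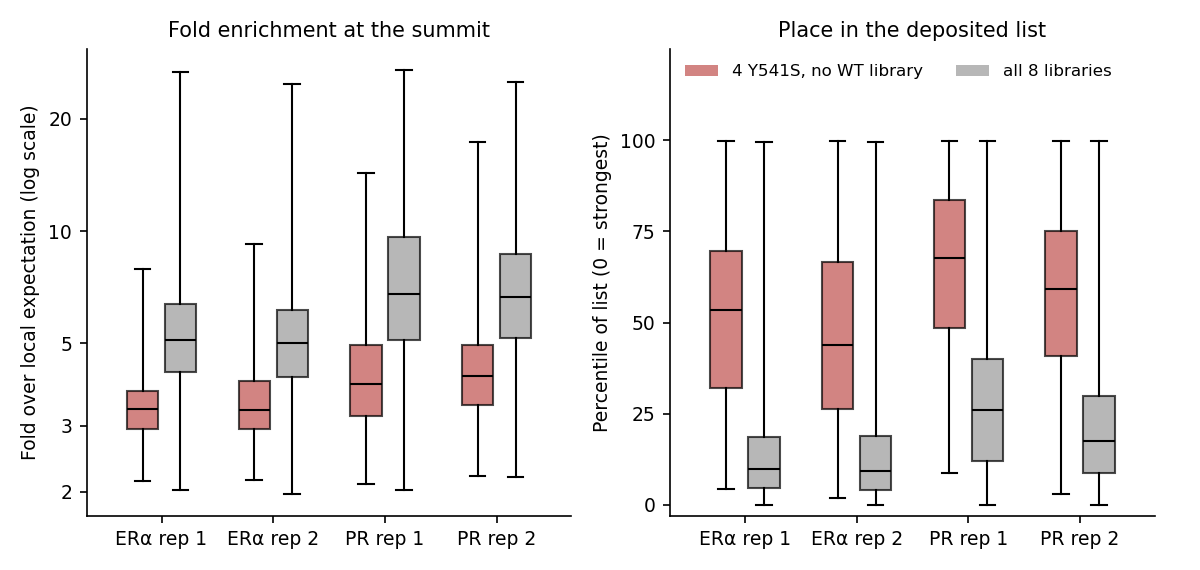
Deposited fold enrichment (left, log axis) and percentile of the list (right, 0 is the strongest peak) of the strongest peak per region in the 4 Y541S libraries; boxes span the quartiles with the median, and whiskers the lowest and highest value. The 731 jointly gained regions (red) have median folds of 3.31 to 4.10, and the 11983 regions of all 8 libraries (grey) 5.01 to 6.76.

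Peak heights were also compared across libraries, as a description. Across the 731 regions, which share their libraries and a selection on presence, the rank correlation (Spearman) was 0.33 between the PR replicates and 0.18 between the ERα replicates. Between an ERα and a PR library it was −0.05 to 0.03. Across the regions of all 8 libraries the corresponding values were 0.74, 0.56 and −0.01 to 0.25. The choice of regions on these same peaks narrows their range, so nothing is read from the lower values.

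Region strength is given below by the worst of a region's 4 percentiles. The best region on this scale, at chr8:94325936-94326462 inside Nup93, a nuclear pore scaffold gene, had folds of 4.19 and 4.25 for ERα and 9.42 and 8.98 for PR, with 20, 13, 58 and 31 fragments at the summit. It lay 3.01 kb from the start of Slc12a3, a sodium-chloride cotransporter gene, and stood no lower than 19.4% in any list. The second, at chr1:160594518-160594936 inside Rabgap1l, a Rab GTPase-activating gene, had folds of 4.49 and 3.96 for ERα and 6.0 and 5.17 for PR. In both regions each PR fold was above each ERα fold, as unscaled values from lists with higher median folds for PR.

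The 2 regions that reached a −log10 p of 10 in every library were both outside coding genes. One, 69.6 kb from Arhgap5 (chr12:52433883-52434367), had ERα folds of 5.37 and 6.30 and PR folds of 7.25 and 7.57. The other (chr6:69184915-69185420) had 6.39 and 9.21 for ERα and 6.38 and 14.02 for PR. It lay in the immunoglobulin kappa locus, on the variable segment Igkv4-74, while its closest coding gene, Rpia, was 1581 kb away. In that region the 2 replicates of each receptor differed more than the receptors did.

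Of the other best-ranked 20, those inside genes lay in Mtmr2 (a phosphoinositide phosphatase gene), Cox4i1 (a subunit of cytochrome c oxidase), Lpcat4 (a lysophospholipid acyltransferase gene), Arid1b (a subunit of the BAF chromatin remodeller), Prkce (protein kinase C epsilon), Cpped1, Bcas3 and Rusc1. Those outside genes lay 423 kb from Efnb2 (the ligand ephrin-B2), 218 kb from Cdh5 (endothelial cadherin), 13.96 kb from Adamts3 (a procollagen protease gene), 104 kb from Kif16b (an endosomal kinesin gene), 189 kb from Tle1 (a Groucho-type corepressor gene), 5.11 kb from Pax7 (a muscle stem cell factor gene), 48.2 kb from Mturn and 69.0 kb from Hmcn1 (the matrix protein hemicentin). The Mtmr2 region covered the promoter printed above, with ERα folds of 3.95 and 3.86 and PR folds of 6.86 and 7.03.

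By deposited fold, the regions ranged from ERα-leaning to PR-leaning. These folds were not scaled between libraries, and the median fold of a whole list was higher for PR (4.64 and 4.26) than for ERα (3.35 and 3.31). By rank within the lists, both ERα peaks stood better in 273 regions and both PR peaks in 85. The examples here were chosen after their values were seen. The region near Tle1 (chr4:72390079-72390537) leaned most to PR, with 64 and 45 fragments and folds of 14.3 and 17.3 for PR against 11 and 10 fragments and folds of 3.65 and 4.05 for ERα. A region inside Ext2, a heparan sulfate polymerase gene, had folds of 10.6 and 9.27 for PR against 2.99 and 3.31. At the other end, the region near Ppara and the let-7 hairpins had 3.04 and 4.98 for ERα against 2.36 and 2.57 for PR. A region inside Kdm4b, a histone demethylase gene, had 4.36 and 5.71 for ERα against 3.17 and 3.26 for PR. In each of these 4 regions both values of one receptor lay outside the range of the other's.

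Distances between ERα and PR summits in the jointly gained regions are given as a description. The rule merged overlapping peaks into one region, so closeness of the peaks is in part set by the rule. A base common to all 4 peaks existed in 568 of the 731 regions (77.7%), and the 4 summits lay within 100 bp of each other in 96 (13.1%), against 28.3% of the regions of all 8 libraries. The median distance between an ERα and a PR summit was 100 to 107 bp over the 4 pairs of libraries. It was 110 bp between the ERα replicates and 75 bp between the PR replicates. Distances between receptors were thus within the range of those between replicates of one receptor. In the regions of all 8 libraries the distances were shorter, at 72 to 84 bp between receptors, 75 bp between the ERα replicates and 48 bp between the PR replicates.

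**Figure D3:**
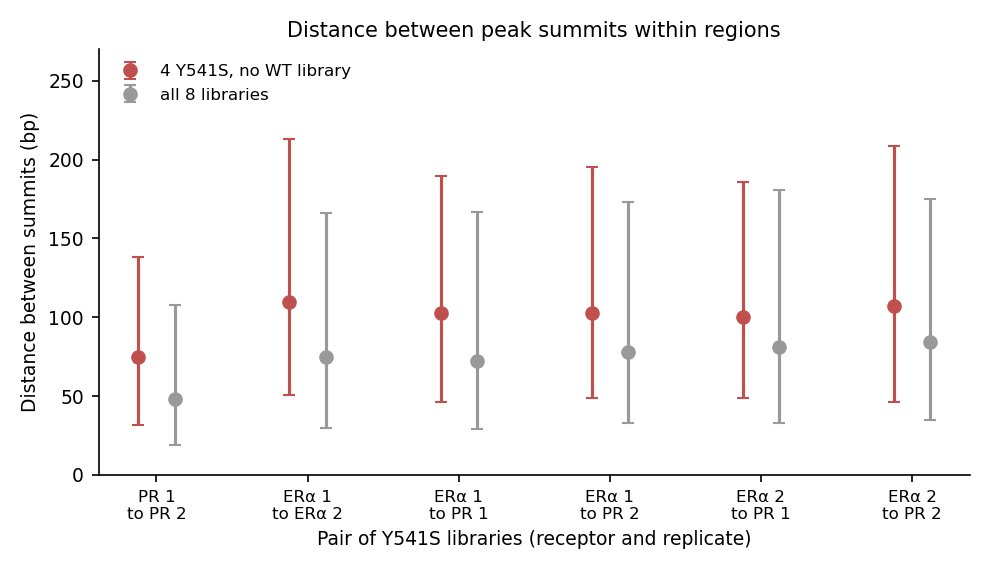
Median distance in bp between the summits of the strongest peaks in 2 Y541S libraries, with the quartiles as bars, for the jointly gained regions (red) and the regions of all 8 libraries (grey). The distances between receptors (100 to 107 bp) lie between those of the PR replicates (75 bp) and the ERα replicates (110 bp).

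Jointly gained regions lay about as far from gene starts as autosomal regions in general. Their median width was 576 bp, and their midpoints lay inside a coding gene in 370 cases (50.6%, 95% Wilson interval 47.0 to 54.2%) and outside in 361. Of all autosomal regions, 56.1% lay inside a coding gene. Of the 706 regions on chromosomes with start sites in the RefSeq table, 54 were within 1 kb of a coding start (7.65%, 5.91 to 9.85%), and the median distance to a start was 42.2 kb, against 38.9 kb for all autosomal regions. No start was held on chromosome 18, so its 25 regions were left out of the shares and distances at starts. Starts were held for 17492 of 21900 coding genes, and on the other chromosomes a region at any other gene counts as distant. The shares at starts are thus lower bounds and the distances upper bounds, in every class of regions. The intervals do not cover this. Of the regions in all 8 libraries, 41.3% (40.4 to 42.2%) were within 1 kb of a start. The share was 5.54% for all autosomal regions. For regions with both Y541S ERα peaks and no other peak (3158 regions) it was 3.94% (3.31 to 4.70%), and for those with both Y541S PR peaks and no other (6898) 2.36% (2.02 to 2.75%). These shares were not tested, because regions are not replicates. Median widths also differed, at 1024 bp for regions of all 8 libraries, 366 bp for ERα alone and 377 bp for PR alone, and their part in the shares was not tested.

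**Figure D4:**
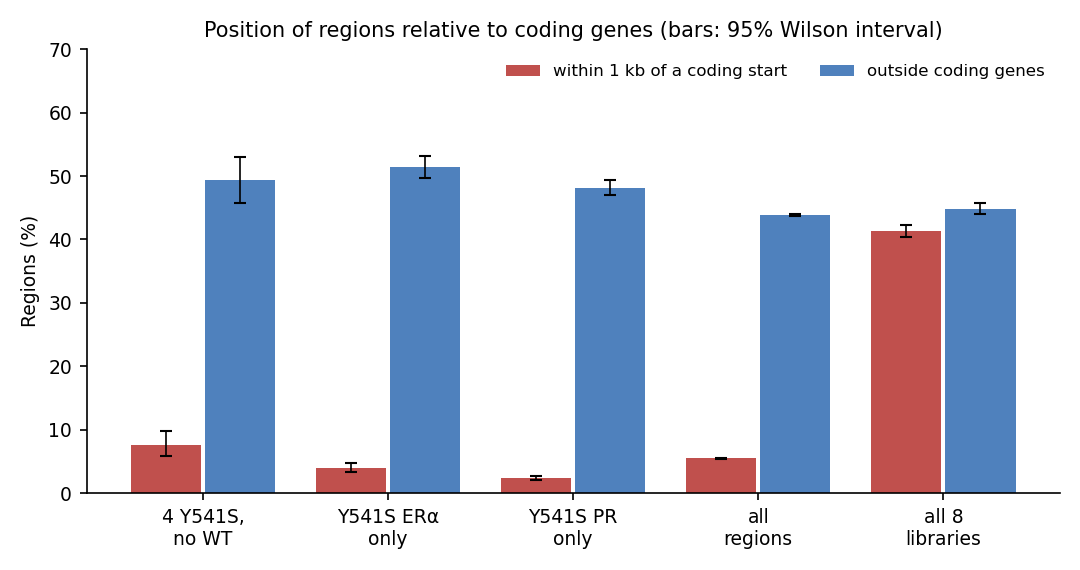
Share of regions within 1 kb of a coding start (red) and outside coding genes (blue), with 95% Wilson intervals that cover counting error only. Starts were held for 17492 of 21900 coding genes. The jointly gained regions (7.65% at starts) sit far below the regions of all 8 libraries (41.3%) and above the regions of one receptor alone (3.94% and 2.36%).

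Genes holding the regions were about as long as those holding any autosomal region. The median length of the coding gene holding a jointly gained region was 92.9 kb, close to 95.3 kb for all autosomal regions, while regions of one receptor alone sat in genes of 109 kb (ERα) and 111 kb (PR) and those of all 8 libraries in genes of 39.4 kb. The regions were scattered, at a median of 704 kb from the next one, and 49 had another within 50 kb. By chromosome, their share of all regions ran from 0.126% on chromosome 15 (17 regions) to 0.333% on chromosome 16 (40 regions).

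The best ranked of the 54 regions within 1 kb of a start lay near the starts of Mtmr2, Rusc1, Cdcp1 (a surface glycoprotein gene), Syt8 (a synaptotagmin gene), Tas2r144 (a bitter taste receptor gene), Sult2b1 (a sulfotransferase of sterols), Znrf1 (a ubiquitin ligase gene) and Rln1 (the peptide hormone relaxin). Those at Rusc1, Syt8 and Tas2r144 lay 0.915, 0.646 and 0.878 kb from the start and did not overlap the promoter window. The Sult2b1 region had ERα folds of 3.35 and 4.02 and PR folds of 8.99 and 6.98. The Znrf1 region had 3.16 and 4.79 for ERα and 3.34 and 4.10 for PR. The unscaled folds of the receptors thus stood apart at Sult2b1 and overlapped at Znrf1.

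The other promoters printed above stood lower in rank. At Ptgs2, which encodes the inducible cyclooxygenase, the folds were 3.33 and 2.89 in the ERα libraries and 3.91 and 3.76 in the PR libraries. At Gja1, which encodes the gap junction protein connexin 43, they were 3.41 and 3.32 in the ERα libraries and 3.21 and 2.99 in the PR libraries. At Plekhh1 they were 3.18 and 3.66 in the ERα libraries and 3.08 and 3.69 in the PR libraries. At Ugt1a7c, a glucuronosyltransferase gene whose window lies within the longer Ugt1a8, the folds were 3.78 and 3.24 in the ERα libraries and 5.03 and 3.49 in the PR libraries. Only Ptgs2 of these 4 had both PR folds above both ERα folds, which are not scaled to each other. By place in the list the receptors overlapped at Ptgs2, at 57.3% and 70.2% for ERα and 70.1% and 74.4% for PR.

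Coding genes within 50 kb of a jointly gained region numbered 1184 of 20665 autosomal ones (5.73%), and 1123 of them had 1 region, 60 had 2 and 1 had 3. Within 10 kb the number was 539 (2.61%), and 678 genes (3.28%) were the closest gene of a region. The gene with 3 was Lrmda, a melanocyte differentiation gene of 1037 kb, with all 3 inside it. Of 223 autosomal genes in 13 lists of pathways and cell types, 17 were linked (7.62%), and the median number of regions per gene was 0 in each list, as over all coding genes. No list was tested against the 5.73% over all genes.

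Central genes of this hormone axis were looked at whatever their values. Esr1, Pgr, Greb1, Areg, Tnfsf11 and Wnt4 had 0 within 50 kb, and the closest lay 383 kb from Greb1 and 579 kb from Tnfsf11. With 5.73% of all coding genes linked, 0 among so few genes does not set them apart. These genes had receptor peaks all the same. Of regions with a peak in all 4 Y541S libraries, Greb1 had 12, Esr1 5, Pgr 4, Tnfsf11 and Wnt4 2 each and Areg 1, and each of these regions also had a peak in at least 2 WT libraries.

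Of 20 classic estrogen response genes, 4 were linked within 50 kb and 1 within 10 kb. Over all coding genes the shares were 5.73% and 2.61%, and the list was not tested against them. Rerg, a Ras-like growth inhibitor gene, had one inside it (chr6:137149475-137150134) with folds of 3.83 and 4.83 for ERα and 4.35 and 4.58 for PR. Tff1, the trefoil factor gene, lay 19.4 kb from a region inside Tmprss3 with 2.74 and 2.90 for ERα and 9.57 and 7.80 for PR. Cxcl12, a chemokine gene, lay 26.3 kb from a region with 2.43 and 2.94 for ERα and 5.51 and 5.54 for PR. Ctsd, the cathepsin D gene, was 49.7 kb from the Syt8 region. PR folds, which were not scaled to those of ERα, were above the ERα folds near Tff1 and Cxcl12 and overlapped them at Rerg.

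Of 15 genes of progesterone-driven paracrine signalling, 3 were linked within 50 kb, Cxcl12 again among them, and 1 within 10 kb. Over all coding genes the shares were 5.73% and 2.61%. Adamts18, an extracellular metalloprotease gene, lay 5.30 kb from a region with folds of 3.26 and 2.91 for ERα and 5.58 and 4.53 for PR. Elf5, the transcription factor gene of alveolar cells, had 2 regions, 21.4 and 23.0 kb outside it. The nearer had 3.31 and 4.94 for ERα and 3.05 and 3.47 for PR. The other had 3.37 and 4.14 for ERα against 4.10 and 2.95 for PR, so the values of the receptors overlapped in both. Of 18 progestin and glucocorticoid induced genes, 2 were linked, Fkbp5, a cochaperone gene of steroid receptors (12.4 kb), and Errfi1, an inhibitor of EGF receptor signalling (30.1 kb). The Fkbp5 region had 3.35 and 3.31 for ERα and 3.77 and 4.69 for PR.

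Among cell type markers, 3 of 18 luminal progenitor and alveolar genes were linked within 50 kb, Elf5, Sox9 and Lif, and 2 within 10 kb. Over all coding genes the shares were 5.73% and 2.61%. The Sox9 region (chr11:112782032-112782541) spanned the lower-coordinate end of that transcription factor gene, with ERα folds of 3.04 and 4.35 and PR folds of 3.77 and 4.91. No start of Sox9 was held, and the closest start held was that of Slc39a11, 784 kb away. The Sox9 region was therefore not counted among the 54 at starts, although it lies on an end of its gene. The region inside Lif, a cytokine gene, had 2.86 and 4.14 for ERα and 2.85 and 4.995 for PR. In both, the replicates of a receptor were farther apart than the receptors. None of 17 hormone-sensing luminal markers and none of 18 adipocyte genes had a region. The basal and myoepithelial list had 1 of 19 (Trp63, which encodes the basal factor p63), the fibroblast and endothelial list 1 of 18 (Eng, an endothelial TGF-beta coreceptor gene) and the immune list 1 of 18 (Adgre1, the macrophage marker F4/80).

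Of the remaining lists, Wnt and Notch signalling had 2 of 21, with a region 0.831 kb from Hey1, a Notch target gene (ERα folds of 2.60 and 3.02, PR folds of 3.87 and 4.77), and one 13.6 kb from Lef1, a Wnt-pathway transcription factor gene. The nuclear receptor coregulators had 1 of 20, inside Kmt2c, a histone methyltransferase gene (ERα folds of 3.55 and 3.26, PR folds of 6.67 and 4.07), and the cell cycle genes 1 of 20, 37.8 kb from Mki67. None of 21 ERBB, FGF and IGF signalling genes was linked. Over all coding genes the share linked within 50 kb was 5.73%, and none of these lists was tested against it.

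Peaks beside the jointly gained regions, which the rule did not use, were compared between genotypes as the share of each library's autosomal peaks with a summit within 10 kb of such a region and outside all of them. The number of such peaks was 851 and 750 in the WT ERα libraries and 1113 and 1035 in the Y541S ones. For PR it was 888 and 1061 in WT and 1219 and 1084 in Y541S. The counts were thus higher in both Y541S libraries of each receptor, whose lists were also longer in all. As a share of the list, in the ERα libraries it was 1.19% and 1.18% in WT and 1.06% and 1.002% in Y541S, that is 1.19 ± 0.00457% and 1.03 ± 0.0405% (SD, n = 2). In the PR libraries it was 1.09% and 1.16% in WT and 1.10% and 1.09% in Y541S (1.12 ± 0.0506% and 1.09 ± 0.00405%). Both Y541S ERα values lay below both WT values, while the PR values overlapped. The log2 difference was −0.20 for ERα (two-sided exact permutation p = 0.33, the smallest that 6 arrangements allow) and −0.04 for PR (exact permutation p = 1). Over both receptors it was −0.12, with a two-sided exact permutation p of 0.167 over 36 arrangements, which cannot go below 0.0556. Taken within one replicate number, the ERα difference was −0.17 (replicate 1) and −0.24 (replicate 2), and the PR difference 0.01 and −0.09. For regions with no WT peak within 1 kb the difference over both receptors was −0.01 (exact permutation p = 0.667). That choice removes WT peaks from the flank itself, so nothing is read from this value. For flanking peaks with −log10 p of at least 5 the difference over both receptors turned in sign, to 0.02 (exact permutation p = 0.667). The share of flanking peaks thus did not pass a threshold of 0.05 in either direction, which this number of libraries does not allow.

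**Figure D5:**
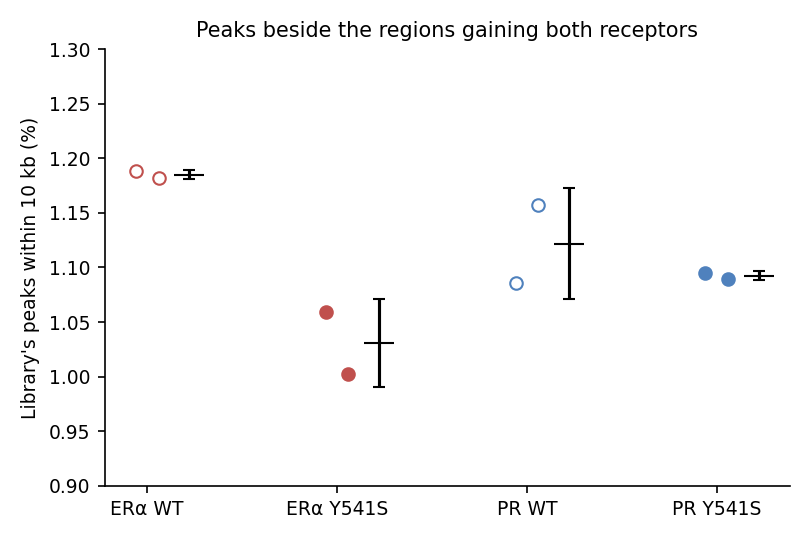
Percent of each library's autosomal peaks with a summit within 10 kb of a jointly gained region and outside all of them, for WT (open) and Y541S (filled) libraries of ERα (red) and PR (blue); black bars give the mean and SD of 2 libraries, and the axis starts at 0.9%. The WT ERα libraries lie at 1.19% and 1.18%, above the Y541S ERα libraries at 1.06% and 1.002%, and the PR libraries overlap.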

How the data were processed

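Chromatin of formalin-fixed mammary glands, sheared to 300 to 500 bp, was precipitated with antibodies against ERα or PR, per the labels' protocols. The authors deposited 1 peak list per library, on mm10 per the submitters' processing notes; for the aligner, the peak caller and the use of input, the details are not given in the sources used here. In these deposited lists every peak has a score (10 times −log10 p, limited), a fold enrichment, a −log10 p (at least 2) and a −log10 q, not scaled between libraries. The fold enrichment is the coverage plus 1, divided by the local expectation plus 1. Heights are therefore only described.

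Coverage and local expectation at summits were recovered from the deposited fold and −log10 p (tolerance 1e-04), and succeeded for at least 99.9956% of peaks per list. The 0.001 quantile of the expectation served as background. Regions were linked to RefSeq coding genes (GRCm38.p6, the assembly of mm10) within 50 kb of the midpoint; start sites came from RefSeq promoter windows, held for 17492 of 21900 coding genes. No genome was used, so the planned motif counts in regions were replaced, after the data were seen, by counts in promoter windows. The 13 lists held 226 genes, all matched. Region merging, recovery and permutation were tested on simulated data. Computations used Python 3.11.15, pandas 2.3.3 and scipy 1.17.1.

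Genes were named by this rule: the closest coding gene of the 20 best-ranked regions, genes with at least 3 regions, up to 4 linked genes per list, up to 8 genes with a region at their start, together with Areg, Esr1, Greb1, Pgr, Wnt4 and Tnfsf11. Other named genes were chosen after their values were seen. The members and lists were chosen with earlier results of these data known. Replicates were the labelled biological replicates, so p-values rest on the spread between libraries. Shared chromatin between ERα and PR libraries would make the joint p too small. The alternatives were other thresholds, list lengths, overlap rules, flank widths and left-out libraries.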

Additional observations from a re-analysis of the deposited data

Results flagged for a closer look

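The X and Y chromosomes lay outside the rule. They held 15 further regions with a peak in all 4 Y541S and no WT library among 6997 regions, and 0 in the reverse case.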

How the results depend on the processing

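The 731 regions became 416 at −log10 p of at least 5, 76 and 22 in equally long lists of the 50000 and 20000 strongest peaks (where the mirror class held 15 and 11), and 487 when WT peaks within 1 kb were also barred. They were 8891 and 6655 within replicates 1 and 2 alone, where a single library per receptor and genotype decides. Leaving out 1 library loosens the rule and gave 1024 to 1894, the lowest without WT ER replicate 2 and the highest without Y541S ER replicate 2. The count was 1345 without WT ER replicate 1, 1574 without WT PR replicate 2, 1694 without Y541S ER replicate 1, 1455 and 1326 without the first and the second Y541S PR library. It stayed within 1.5 times 731 with −log10 p of at least 3 (693), −log10 q of at least 1.3 (721), coverage scaled to the shallowest library (538), an overlap of 100 bp (687), summit windows (703) and a common base (568). The coverage scaling left lists of unequal length, at 46737 to 93491 peaks in the WT and 69433 to 100206 in the Y541S libraries. Linked genes numbered 539 within 10 kb and 678 as closest genes, against 1184. The share at starts was 13.0% within 5 kb, and among 70 strong regions (−log10 p from 5 upward in each Y541S list) 5 were at starts (7.14%); 8.34% of all 731 lay within 1 kb of either gene end, a choice made after seeing the data. The mean ERα to PR summit distance over the 4 pairs was 103 bp, and 97.9 bp with exactly 1 peak per library.

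The flanking difference of −0.12 kept its sign in 14 of 15 alternatives and turned to 0.018 at −log10 p of at least 5. Among the 14 is the choice of regions with no WT peak within 1 kb, which itself removes WT peaks from the flank. Without one library in turn the flanking difference ran from −0.14 (without WT PR replicate 1) to −0.10. With a replicate block its exact permutation p was 0.25, of at least 0.125 possible; shared numbers did not mark shared deviations (correlations of 0.04 for ERα and 0.002 for PR across regions). Median summit coverage of the 731 regions was 10 to 15 fragments per library. The part of depth in these counts was not tested beyond the scaling above.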
